A study of Mus musculus with 4 samples.

Results

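Potassium channel genes were taken as all protein-coding mouse genes whose symbol is Kcn followed by letters and a number, with 1 further gene of that form not analysed here. The rule uses names alone and gave 91 of the 31227 rows of the deposited count table. They were followed in colonic epithelial cells of mice with colitis induced by dextran sulfate sodium (DSS), which damages the lining of the colon. Libraries labelled Smad4 KO (replicates 1 and 2) came from mice whose epithelium lacks Smad4, the shared mediator of TGF-β and BMP signalling, and were set against WT libraries (replicates 1 and 3). Mice of both genotypes were 8 to 10 weeks old, drank 3.5% DSS for 5 days and then plain water, and were killed on day 7. The time label reads 5 days. The comparison therefore shows how the genotypes differed under DSS, with no library from mice without DSS analysed here. The sources used here do not name the Cre driver behind the epithelial deletion, nor do they tell whether each library is a separate mouse. The p-values then set the difference between genotypes against the spread between the 2 libraries of a genotype, estimated with help from all genes. Part of that spread may be technical.

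A potassium channel lets K+ pass down its electrochemical gradient and so sets the membrane voltage of the cell. In the colon, channels of the basolateral membrane return the K+ that the sodium pump and the Slc12a2 cotransporter bring in, and this keeps up the driving force for chloride secretion. Kcnq1 with its small partner Kcne3 is known for this role under cAMP, and Kcnn4 under calcium, while Kcnma1 is known for secreting K+ into the lumen.

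The KO libraries held 61260099 and 67927291 counts and the WT libraries 56018009 and 42577920. Levels are in CPM, which takes library size out of the counts, and 1 count stood for 0.0150 to 0.0229 CPM. Low values of the table pile up near multiples of 4 in all 4 libraries, so 1 deposited count cannot be read as 1 sequenced fragment. Smad4 had 51.5 and 41.1 CPM in KO and 152 and 180 CPM in WT. Epithelial markers (10 genes) summed to 18960 and 19608 CPM in KO and 19400 and 18541 CPM in WT, which overlap. Of the 10, 4 were higher and 1 lower in KO, beside 8.83% higher and 6.4% lower over all genes tested. Without the leading gene Krt8 the epithelial list summed to 13380 and 13937 CPM in KO and 13199 and 12812 CPM in WT. The 8 neutrophil markers summed to 439 and 427 CPM in KO against 130 and 103 CPM in WT. Of 6 tested, 5 were higher in KO, and Mpo and Elane were at 0 in all 4 libraries. The leading marker Ly6g had 330 and 319 CPM in KO and 116 and 93.3 CPM in WT. Without Ly6g the neutrophil list summed to 110 and 108 CPM in KO and 13.6 and 9.75 CPM in WT. Fibroblast markers summed to 51.8 and 57.3 CPM in KO and 26.6 and 26.7 CPM in WT, with 2 of 6 tested higher in KO. Lymphocyte markers summed to 25.4 and 29.3 CPM in KO and 10.1 and 12.4 CPM in WT, with 2 of 7 tested higher. All 8 macrophage markers summed to 185 and 178 CPM in KO and 173 and 192 CPM in WT, which overlap. The leading one, Cd14, was lower in KO without being called. The other 7 summed to 48.3 and 44.8 CPM in KO and 14.1 and 11.2 CPM in WT. The neutrophil, fibroblast and lymphocyte sums were thus higher in KO, the macrophage sum only without Cd14 and the epithelial sum only without Krt8. Smooth muscle markers were low but also higher in KO, at 5.91 and 4.29 CPM against 4.13 and 2.61 CPM in WT. Of 6 tested, 0 were called. Without the leading gene Tagln the sums were 1.98 and 2.16 CPM in KO and 2.52 and 1.17 CPM in WT, which overlap. The part of these cell types in the channel values was not tested.

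Of the 91 genes, 67 had a count in at least 1 library and 41 had counts in all 4. Another 24 were at 0 throughout. A low-count filter left 45 for testing with edgeR's quasi-likelihood test, and p-values were adjusted by Benjamini-Hochberg over all 15838 genes tested. At an adjusted p under 0.05, 4 potassium channel genes were higher in KO (Kcnk1, Kcnk6, Kcnh3 and Kcnh2) and 3 were lower (Kcne3, Kcnf1 and Kcnk5). These 7 are 15.6% of the 45, beside 15.2% of all genes tested (8.83% higher and 6.4% lower in KO). The share called was therefore near the background. The libraries of the genotypes did not overlap for 29 of the 45, or 64.4%, beside 59.4% of all genes. The median log2 fold change of KO over WT was -0.12 over the 45 and 0.01 over all genes. Without KO replicate 1 the Kcn calls were 2 higher and 1 lower, beside 5.95% of all genes called, and without KO replicate 2 they were 2 higher and 2 lower, beside 5.93%.

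The calls were unevenly spread over expression level. Kcn genes with a mean of at least 5 CPM numbered 11, and 7 of these (63.6%) were called, beside 18.3% of all 10625 genes at that level. Their median absolute log2 fold change was 0.54, against 0.19 over all genes at that level. None of the 34 tested genes below 5 CPM was called by edgeR, and 11 of all 45 reached an unadjusted p under 0.05, beside 29.9% of all genes. DESeq2, which called 21.8% of all genes, called 2 of the 34 (Kcnk16 and Kcnv1), and limma-voom, which called 16.7%, called 1 (Kcnv1). Both genes passed the low-count filter only through KO, where they are high, so these calls are no independent evidence. Of the 45 tested genes, 31 had at least 10 counts in all 4 libraries, 7 only in both KO libraries and 5 only in both WT libraries. The 5 CPM limit was chosen with the values known, so these shares are a description.

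**Figure D1:**
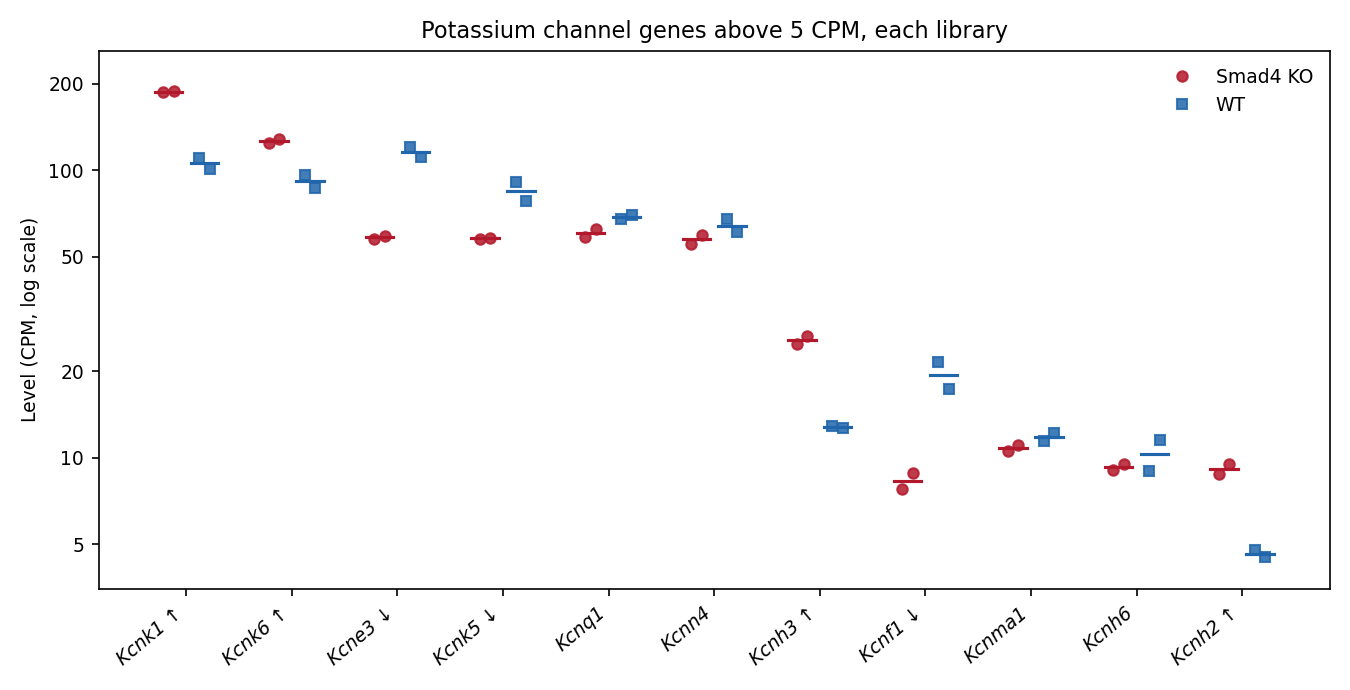
Level in CPM (log axis) of the 11 potassium channel genes with a mean of at least 5 CPM, in each Smad4 KO library (red circles) and WT library (blue squares), with the group means as bars. Arrows mark genes with adjusted p under 0.05; Kcnk1, Kcnk6, Kcnh3 and Kcnh2 lie higher in KO and Kcne3, Kcnk5 and Kcnf1 lower, with no overlap of libraries, while Kcnh6 overlaps.

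To compare levels between genes, CPM was divided by exon length in kilobases. Kcnk1 led on this scale with 83.5 and 84.1 CPM per kilobase in KO, whereas Kcne3 led in WT. Kcne3 had 32.5 and 33.1 CPM per kilobase in KO and 67.4 and 62.6 CPM per kilobase in WT, where Kcnk1 had 49.2 and 45.2. Kcnk6, Kcnk5, Kcnq1 and Kcnn4 came next. These 6 genes held 91.7% of the summed Kcn level per exon length in both KO libraries and 92.1% and 91.7% in the WT libraries. Summed over all 91 genes, Kcn CPM was 629 and 646 in KO and 640.1 and 593 in WT, so the summed levels of the genotypes overlapped. In bulk RNA, fewer cells of a type and less RNA per cell cannot be told apart. With the longest transcript as the length, the same 6 genes led, though only 2 of them held the same place.

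The composition of that total differed by class. Two-pore-domain (K2P) genes held 64.1% and 63.4% of the summed level per exon length in KO and 47.0% and 45.7% in WT. In CPM per kilobase, K2P genes summed to 131 and 133 in KO and 100.1 and 89.9 in WT. Kcnk1 alone had 83.5 and 84.1 in KO and 49.2 and 45.2 in WT. The other K2P genes together overlapped between genotypes, so the shift of this class lay in Kcnk1. Auxiliary subunits, nearly all Kcne3, held 16.5% and 16.4% in KO and 32.1% and 32.3% in WT. Voltage-gated genes held 12.1% and 12.7% in KO and 11.1% and 12.7% in WT. Genes of calcium- or sodium-activated channels held 5.78% and 6.01% in KO and 6.67% and 6.58% in WT. Modulatory voltage-gated subunits held 0.924% and 0.973% in KO and 2.37% and 1.96% in WT. Inward rectifiers held less than 1% in each library. With 2 libraries a group, an exact permutation test cannot give a two-sided p below 0.333, so these shares carry no test.

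**Figure D2:**
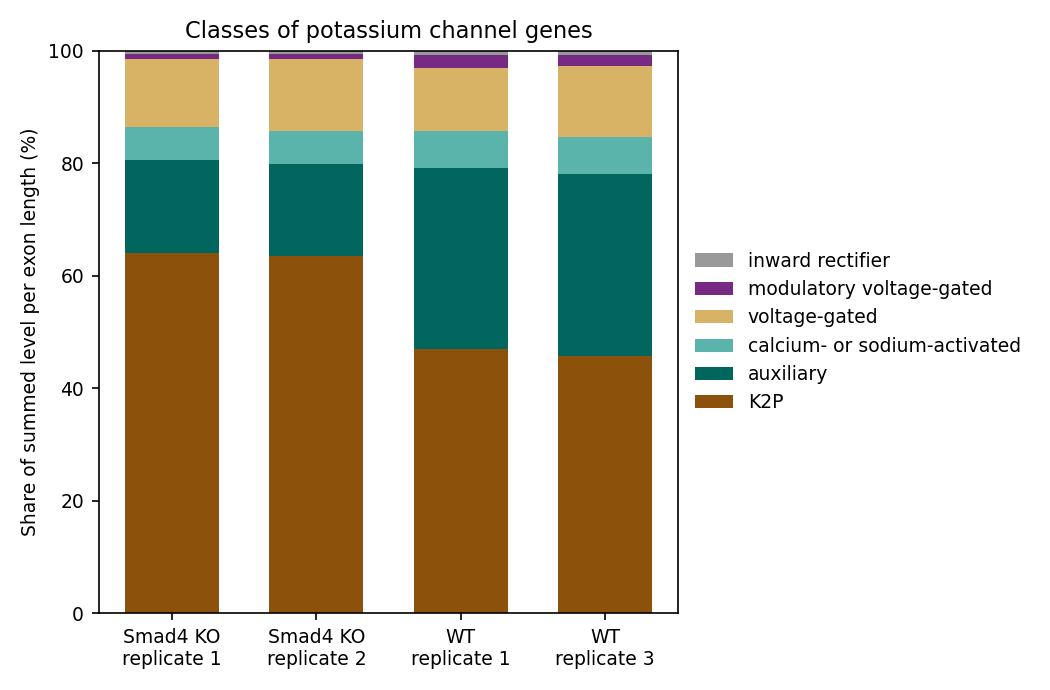
Share of the summed Kcn level per exon length (%) held by each class in each library, Smad4 KO replicates 1 and 2 on the left and WT replicates 1 and 3 on the right. K2P genes take 64.1% and 63.4% in KO and 47.0% and 45.7% in WT, and auxiliary subunits 16.5% and 16.4% in KO and 32.1% and 32.3% in WT. The K2P difference lies in Kcnk1, and the other K2P genes together overlap between genotypes.

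K2P genes encode leak channels that are open at rest. Of 14 members, 12 had a count and 8 were tested, with 2 higher and 1 lower in KO. Kcnk1 (chromosome 8, 125995170 to 126030685, plus strand, GRCm38), a weakly inward-rectifying leak channel, had 187 and 188 CPM in KO and 110 and 101 CPM in WT. Its KO libraries lay close together and well above both WT libraries. The means were 187 ± 0.926 CPM in KO and 105 ± 6.40 CPM in WT (SD, n = 2 each), a log2 fold change of 0.83 (SE 0.0710, edgeR adjusted p = 0.00216), or 1.78-fold with a 95% interval of 1.57 to 2.01. The call was kept in all 12 alternative settings. Kcnk1 shares 179 exon bases, 8.01% of its exons, with Gm45875, which was below 1 CPM in every library.

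Kcnk6 (chromosome 7, 29221926 to 29232515, minus strand), a related K2P gene known for K+ efflux from macrophages, had 124 and 128 CPM in KO and 96.0 and 86.9 CPM in WT. The libraries did not overlap, and the gap between genotypes was smaller than for Kcnk1. It was 1.38-fold higher in KO (95% interval 1.20 to 1.58), with a log2 fold change of 0.46 (SE 0.0777, edgeR adjusted p = 0.0178). Without KO replicate 1 the adjusted p was 0.0915, and without KO replicate 2 it was 0.128. Of the 8 macrophage markers, 3 were higher in KO and none lower, beside 8.83% higher and 6.4% lower over all genes. The 7 other than Cd14 were all higher in KO without overlap, beside 59.4% of all genes without overlap in either direction. Cd14, the most abundant, had 136 and 134 CPM in KO and 159 and 181 CPM in WT (not called). Their part in the Kcnk6 value was not tested.

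Kcnk5 (chromosome 14, 20140057 to 20181809, minus strand), an alkaline-activated K2P channel of transporting epithelia, went the other way. It had 57.7 and 58.1 CPM in KO and 91.0 and 77.9 CPM in WT, with both KO libraries below both WT libraries. The means were 57.9 ± 0.264 CPM in KO and 84.5 ± 9.31 CPM in WT (SD, n = 2 each), a log2 fold change of -0.54 (SE 0.0961, edgeR adjusted p = 0.0207), so WT was 1.46-fold higher. Leaving out KO replicate 1 gave an adjusted p of 0.133, and leaving out KO replicate 2 gave 0.123. The ratio of Kcnk1 to Kcnk5 CPM was 3.23 in both KO libraries and 1.21 and 1.30 in the WT libraries. The ratio of Kcnk6 to Kcnk5 was 2.15 and 2.20 in KO and 1.06 and 1.12 in WT. These ratios were chosen after the levels were seen, and their size depends on gene length while the fold between libraries does not.

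The other tested K2P genes were low. Kcnk3, an acid-sensitive leak channel, had 1.21 and 0.390 CPM in KO and 1.97 and 2.34 CPM in WT (edgeR adjusted p = 0.184). Kcnk16, an alkaline-activated channel best known from the pancreas, had 0.549 and 0.869 CPM in KO and 0.0882 and 0.115 CPM in WT. Its WT values are close to the step of 4 counts, which is 0.0600 to 0.0917 CPM. The log2 fold change was 2.79 (SE 0.733) with an adjusted p of 0.0643 in edgeR and 0.0255 in DESeq2, for a gene that passed the filter only through KO. Kcnk10, a stretch- and lipid-sensitive channel, had 0.848 and 0.749 CPM in KO and 0.670 and 0.642 CPM in WT (edgeR adjusted p = 0.753), and its relative Kcnk4 had an adjusted p of 0.421. Kcnk7 overlapped between genotypes. Kcnk12, Kcnk13, Kcnk18 and Kcnk2 had counts but were not tested, and Kcnk15 and Kcnk9 were at 0 in all 4 libraries.

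Auxiliary subunits do not form the pore but set how the channel opens and where it goes. Of 15, 13 had a count, 7 were tested and 1, Kcne3, was called. Kcne3 (chromosome 7, 100176502 to 100184869, plus strand), which holds Kcnq1 open at resting voltage in the basolateral membrane, had 57.8 and 58.9 CPM in KO and 119.97 and 111 CPM in WT. Both KO values were about level with each other and far below either WT value. The means were 58.3 ± 0.769 CPM in KO and 116 ± 6.10 CPM in WT (SD, n = 2 each), a log2 fold change of -0.99 (SE 0.0731, edgeR adjusted p = 0.00141). WT was 1.98-fold higher, the 95% interval of KO over WT being 0.444 to 0.573, and the call was kept in all 12 alternative settings.

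The RefSeq window around the first annotated start of Kcne3 and that of Kcnk1 are shown because these called genes moved in opposite directions and have a window in the RefSeq table. Each runs 5′ to 3′ from 250 bases before to 50 after the start on GRCm38.p6, and capitals mark matches on either strand to CAGAC, a core of the Smad binding element, or to GGAATG, a core of the Tead element. The pair lie at chr7:100176420-100176719 (plus strand) and chr8:125994852-125995151 (plus strand).
Kcne3: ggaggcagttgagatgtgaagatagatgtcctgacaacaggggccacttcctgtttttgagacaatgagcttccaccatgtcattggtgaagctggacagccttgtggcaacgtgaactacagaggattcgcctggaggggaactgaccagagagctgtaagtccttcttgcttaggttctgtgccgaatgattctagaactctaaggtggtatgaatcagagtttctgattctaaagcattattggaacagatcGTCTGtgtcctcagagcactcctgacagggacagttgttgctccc
Kcnk1: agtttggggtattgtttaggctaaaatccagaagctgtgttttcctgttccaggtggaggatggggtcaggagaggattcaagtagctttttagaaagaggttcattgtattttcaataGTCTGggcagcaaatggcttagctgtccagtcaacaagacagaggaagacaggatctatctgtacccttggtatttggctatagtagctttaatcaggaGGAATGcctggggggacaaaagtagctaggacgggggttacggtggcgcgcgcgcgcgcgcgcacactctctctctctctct
The Kcne3 window holds 1 match to CAGAC, and the window of a second annotated start of the gene, at chr7:100178433-100178732, holds 3. The Kcnk1 window holds 1 match to each motif. Of the other called genes, Kcnk5 has 4 matches to CAGAC and none to GGAATG, while Kcnf1 and Kcnh2 have no match to either motif. The Kcnh2 window, at chr5:24329542-24329841 (minus strand), lies inside the gene and not at its GENCODE 5′ end. The Kcnk1 window ends shortly before the GENCODE start of that gene, 125995170, so it holds no GENCODE exon of Kcnk1. CAGAC is found in 49.6% and GGAATG in 14.7% of all 32851 windows, so such matches are common. They describe the letters and are not shown to be sites. Kcnk6 and Kcnh3 were not matched to the table, which held 67 of the 91 genes.

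The remaining tested auxiliary genes were the A-type channel partners Kcnip4 and Kcnip2, the beta subunits Kcnab1, Kcnab2 and Kcnab3, and Kcnmb2 of the Kcnma1 channel. None exceeded 2 CPM in any library. Kcnab2 had 1.23 and 1.12 CPM in KO and 0.511 and 0.826 CPM in WT (edgeR adjusted p = 0.314), and Kcnab3 had 0.715 and 0.734 CPM in KO and 0.476 and 0.596 CPM in WT (edgeR adjusted p = 0.647). Kcnip4 and Kcnip2 overlapped between genotypes. Kcne2, Kcne4, Kcnip1, Kcnip3, Kcnmb3 and Kcnmb4 had counts but were not tested. Kcne1, the cardiac partner of Kcnq1, and Kcnmb1, the smooth muscle partner of Kcnma1, were at 0 in all 4 libraries.

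Voltage-gated pore-forming genes open on depolarisation, or at rest when a partner changes their gating. Of 30 members, 17 had a count and all 17 were tested, with 2 higher in KO and none lower. Kcnq1, the partner of Kcne3, had 58.3 and 62.6 CPM in KO and 67.7 and 69.6 CPM in WT. Its KO libraries lay just below the WT libraries. The difference did not pass, with a log2 fold change of -0.18 (SE 0.0764, edgeR adjusted p = 0.185) and a 95% interval of KO over WT of 0.770 to 1.01. The ratio of Kcne3 to Kcnq1 CPM was 0.991 and 0.941 in KO and 1.77 and 1.60 in WT, a ratio chosen after the levels were seen. Kcnq1 shares 121 exon bases, 2.96% of its exons, with the antisense Kcnq1ot1, which had 2.63 and 1.29 CPM in KO and 7.09 and 7.48 CPM in WT. No source used here says whether strand was kept, so reads of the pair cannot be told apart.

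Kcnh3 (chromosome 15, 99224861 to 99242817, plus strand), a channel of the ether-a-go-go family known from forebrain neurons, had 24.8 and 26.5 CPM in KO and 12.9 and 12.7 CPM in WT. The libraries of each genotype lay close together and far from the other genotype. The means were 25.6 ± 1.27 CPM in KO and 12.8 ± 0.145 CPM in WT (SD, n = 2 each), so KO was 2.01-fold higher (SE of the log2 fold change 0.106, edgeR adjusted p = 0.00419), with a 95% interval that ended at 2.42. The call was kept in all 12 alternative settings.

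Kcnh2 (chromosome 5, 24319589 to 24351604, minus strand), of the same family and known for repolarising the heart, had 8.77 and 9.47 CPM in KO and 4.76 and 4.52 CPM in WT. Both KO libraries lay above both WT libraries. The log2 fold change was 0.97 (SE 0.160, edgeR adjusted p = 0.0165), with a 95% interval of 1.49 to 2.60-fold. Without KO replicate 1 the adjusted p was 0.0820 and without KO replicate 2 it was 0.113. Kcnh6, the third member of the family above 5 CPM, had 9.03 and 9.47 CPM in KO and 8.99 and 11.6 CPM in WT, so its libraries overlapped (edgeR adjusted p = 0.627, 95% interval of KO over WT 0.668 to 1.22).

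Markers of other excitable cells were read beside the Kcnh genes. The 8 enteric neuron markers summed to 22.0 and 23.6 CPM in KO and 12.3 and 11.7 CPM in WT. The leading gene was Ret, with 18.8 and 20.1 CPM in KO and 5.34 and 5.62 CPM in WT. Without Ret the list summed to 3.23 and 3.48 CPM in KO and 6.95 and 6.10 CPM in WT, and all 4 other tested markers had a negative log2 fold change. Over the list 1 gene rose and 1 fell among 5 tested, beside 8.83% risen and 6.4% fallen over all genes. The 8 enteroendocrine markers summed to 650.0 and 654 CPM in KO and 493 and 437 CPM in WT, with 3 higher and 3 lower of 8 tested. Their leading gene Chgb had 305 CPM in both KO libraries and 153 and 114 CPM in WT. Without Chgb the sums were 345 and 348 CPM in KO and 340.4 and 323 CPM in WT. Their part in the Kcnh2 and Kcnh3 values was not tested.

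Lower in this class, Kcnd1, an A-type channel, had 2.43 and 2.50 CPM in KO and 1.39 and 1.01 CPM in WT, with a log2 fold change of 1.03 (SE 0.323, edgeR adjusted p = 0.0985). The other tested genes of the class were below 5 CPM in every library and were not called, among them Kcnb2, a delayed rectifier that modulatory subunits join. Those at 0 in all 4 libraries were Kcna1, Kcna2, Kcna4, Kcna5, Kcna6, Kcna10, Kcnc2, Kcnc4, Kcnd2, Kcnh4, Kcnh5, Kcnq3 and Kcnq5, which are mostly channels known from nerve and muscle.

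Modulatory voltage-gated subunits form no channel alone and alter delayed rectifier channels when they join them. Of 9, 7 had a count and 4 were tested, with 1 lower in KO. Kcnf1 (chromosome 12, 17172100 to 17176888, minus strand) had 7.75 and 8.84 CPM in KO and 21.4 and 17.3 CPM in WT. Its KO values were less than either WT value by a wide margin. The means were 8.30 ± 0.772 CPM in KO and 19.4 ± 2.93 CPM in WT (SD, n = 2 each), a log2 fold change of -1.22 (SE 0.160, edgeR adjusted p = 0.00803), so WT was 2.33-fold higher. Without KO replicate 1 the adjusted p was 0.0528.

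Levels of Kcnf1 and Kcnb2, a pore it can join, were compared per kilobase of exon. Kcnf1 had 1.62 and 1.85 CPM per kilobase in KO and 4.48 and 3.61 in WT. Kcnb2 had 0.0494 and 0.0148 CPM per kilobase in KO and 0.0767 and 0.0182 in WT. Kcnf1 was thus above Kcnb2 in every library, while the Kcnb2 libraries overlapped between genotypes. Kcns3 and Kcnv2 were below 2 CPM and not called (edgeR adjusted p = 0.226 and 0.187). Kcnv1 had 19 and 14 counts (0.316 and 0.210 CPM) in KO and 0 in both WT libraries. The floor for WT was taken as 12 counts over the group, which is 3 steps of 4 and 0.120 CPM. Over the KO group, Kcnv1 stood at 2.18 times that floor. Counting error in the KO value was not included, so 2.18 is not a lower bound on the fold. Kcnv1 too passed the filter only through KO. Its adjusted p, 0.0737 in edgeR, 0.0425 in DESeq2 and 0.0435 in limma-voom, thus belongs to a gene kept for being high there. Floors cover counting error only. Kcng3, Kcng4 and Kcns2 had counts but were not tested, and Kcng1 and Kcns1 were at 0 in all 4 libraries.

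**Figure D3:**
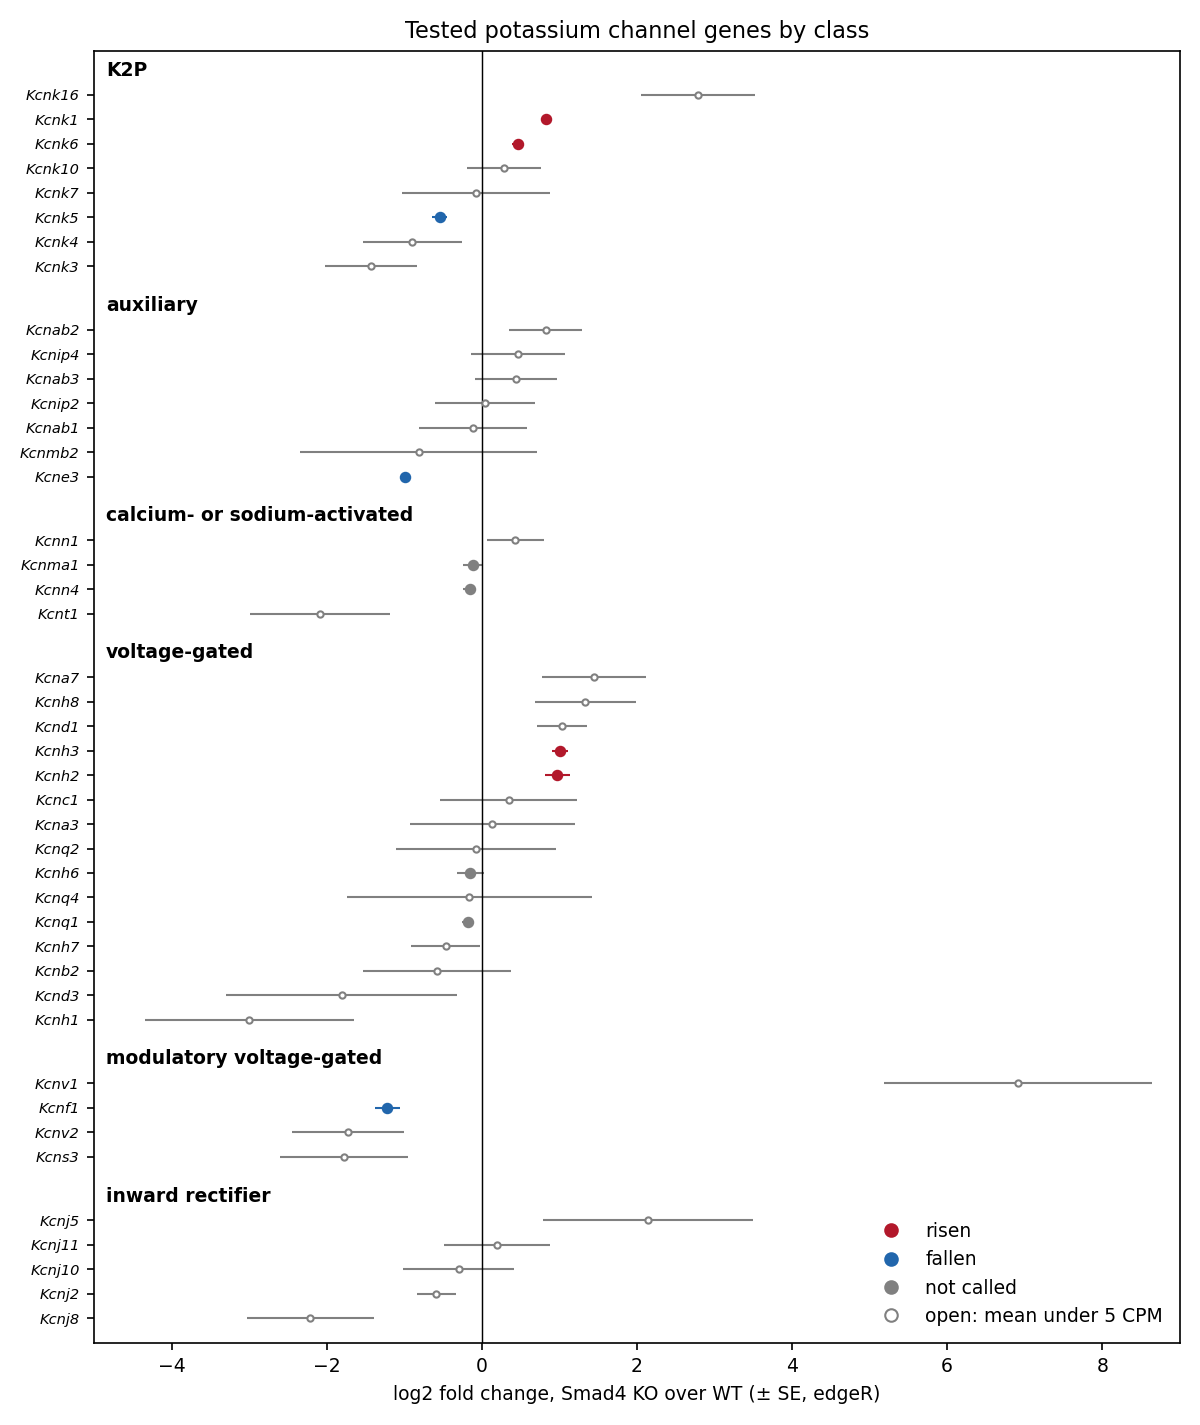
Log2 fold change (Smad4 KO over WT, edgeR) with its SE for tested potassium channel genes that are reported here, grouped by class; red marks genes risen and blue genes fallen at adjusted p under 0.05, and open points have a mean under 5 CPM. The 7 called genes are filled points with short error bars, and the widest bars belong to low genes such as Kcnv1, whose fitted value depends on the prior count because WT was at 0.

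Calcium- or sodium-activated genes link K+ flow to calcium or sodium in the cell. All 8 had a count, 4 were tested and none was called by edgeR, DESeq2 or limma-voom, nor at an unadjusted p under 0.05, where the count was 0. Kcnn4, the intermediate-conductance channel of the basolateral membrane, had 55.5 and 59.4 CPM in KO and 67.4 and 60.9 CPM in WT. The KO libraries lay below the WT libraries by a small margin (edgeR adjusted p = 0.302, 95% interval of KO over WT 0.767 to 1.05). Kcnma1, the large-conductance channel, had 10.6 and 11.1 CPM in KO and 11.4 and 12.1 CPM in WT. Its adjusted p was 0.589 in edgeR and the interval of KO over WT began at 0.739. Kcnn1, a small-conductance channel, had 1.58 and 1.24 CPM in KO and 1.06 and 1.03 CPM in WT (edgeR adjusted p = 0.505), and sodium-activated Kcnt1 stayed below 1 CPM (edgeR adjusted p = 0.199). Kcnn2, Kcnn3, Kcnt2 and Kcnu1 had counts but were not tested. The ratio of Kcnn4 to Kcnq1 CPM, 0.952 and 0.949 in KO and 0.995 and 0.875 in WT, overlapped.

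Inward rectifiers pass K+ more easily into the cell than out and include the pore of the ATP-sensitive channel. Of 15, 10 had a count, 5 were tested and none was called by edgeR, DESeq2 or limma-voom, with 1 at an unadjusted p under 0.05. Kcnj2, a strong rectifier, had 3.69 and 2.65 CPM in KO and 4.71 and 4.82 CPM in WT, without overlap (edgeR adjusted p = 0.190). Kcnj8, an ATP-sensitive pore of vessels, had 0.0665 and 0.180 CPM in KO and 0.617 and 0.550 CPM in WT (edgeR adjusted p = 0.144). The 6 endothelial markers summed to 7.45 and 6.01 CPM in KO and 7.62 and 5.60 CPM in WT, with Cldn5 at 0 in all 4. The leading gene was Vwf. Without Vwf the sums were 2.512 and 2.398 CPM in KO and 1.763 and 1.101 CPM in WT, so higher in KO without overlap. None of the 4 tested markers was called. The part of endothelial cells in the Kcnj8 value was not tested. Kcnj11, the ATP-sensitive pore of endocrine cells, had 0.466 and 0.929 CPM in KO and 0.846 and 0.367 CPM in WT, which overlap. Kcnj10 and Kcnj5 were below 1 CPM. Kcnj13, Kcnj14, Kcnj16, Kcnj6 and Kcnj9 had counts but were not tested, and Kcnj13 shares 49.1% of its exon bases with Gigyf2. Kcnj1, Kcnj12, Kcnj15, Kcnj3 and Kcnj4 were at 0 throughout. The highest level of any of the 46 untested Kcn genes in any library was 0.615 CPM, and no difference among them was tested.

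Partners outside the Kcn names were read from a list of 10 genes, of which 4 were tested and 1 was called, beside 15.2% of all genes tested. Abcc8, the sulfonylurea receptor that joins Kcnj11, had 8.47 and 10.0 CPM in KO and 4.32 and 4.82 CPM in WT. It was 2.03-fold higher in KO, with a log2 fold change of 1.02 (SE 0.179, edgeR adjusted p = 0.0202). The call was lost without WT replicate 1 (adjusted p = 0.0516), KO replicate 1 (0.0671) or KO replicate 2 (0.130). Lrrc26, the subunit that lets Kcnma1 open at resting voltage, had 70.9 and 76.1 CPM in KO and 67.4 and 84.0 CPM in WT, which overlap (edgeR adjusted p = 0.863). The ratio of Lrrc26 to Kcnma1 CPM was 6.71 and 6.87 in KO and 5.91 and 6.92 in WT. Amigo1, a partner of delayed rectifiers, averaged 17.9 ± 1.32 CPM in KO and 17.8 ± 3.47 CPM in WT (SD, n = 2 each). Lrrc38, Lrrc52, Lrrc55 and Dpp10 were at 0 in all 4 libraries.

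The other genes of colonic salt and fluid transport were a list of 25, all tested. They held 16 calls, or 64.0%, beside 15.2% of all genes tested. Most of the list had a mean of at least 5 CPM, where 18.3% of all genes were called. The list was chosen with earlier results of these data known, so its share is a description and no independent evidence. Of the 25, 4 were higher in KO, 12 lower and 9 not called, beside 8.83% higher and 6.4% lower over all genes. The median log2 fold change was -0.37 beside 0.01 over all genes. Chloride exit is the step that basolateral K+ channels drive. The calcium-activated chloride channel Ano1 had 41.5 and 39.8 CPM in KO and 191 and 201 CPM in WT, so WT was 4.82-fold higher (edgeR adjusted p = 0.000197). The bestrophin Best2 was 3.12-fold higher in WT (edgeR adjusted p = 0.000786). Cftr, the cAMP-gated chloride channel, averaged 90.2 ± 3.85 CPM in KO and 162 ± 0.758 CPM in WT (SD, n = 2 each, edgeR adjusted p = 0.00173). Slc12a2, which loads chloride, potassium and sodium at the basolateral side, was higher in KO, at 511 ± 5.11 CPM against 340.1 ± 3.22 CPM in WT (SD, n = 2 each, edgeR adjusted p = 0.00213).

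Genes that move K+ by other routes were also among those lower in KO. Atp12a, the apical H+/K+ pump that takes up K+, averaged 203 ± 1.22 CPM in KO and 452 ± 5.95 CPM in WT (SD, n = 2 each), and WT was 2.23-fold higher (edgeR adjusted p = 0.000391). The sodium pump beta subunit Atp1b1 was 1.35-fold higher in WT, but its call was lost without KO replicate 1. Fxyd4, a regulator of the pump, had 1.73 and 1.66 CPM in KO and 20.2 and 22.6 CPM in WT, so WT was 12.6-fold higher (edgeR adjusted p = 0.000289).

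Sodium and anion absorption held calls in both directions. The ENaC subunit Scnn1b was 2.72-fold higher in KO (edgeR adjusted p = 0.00165), while Scnn1a was 1.99-fold higher in WT. The Na+/H+ exchanger Slc9a3 was 1.84-fold higher in KO and the kinase Sgk1 1.45-fold, though the Sgk1 call was lost without either KO library. The anion exchangers Slc26a3 and Slc26a2 and the bicarbonate cotransporter Slc4a4 were 2.06-fold, 1.54-fold and 2.02-fold higher in WT. The 8 absorptive colonocyte markers, which include Slc26a3, summed to 6231 and 6139 CPM in KO and 4132 and 4318 CPM in WT. Of these, 5 were higher and 3 (Aqp8, Slc26a3 and Slc37a2) lower in KO, beside 8.83% higher and 6.4% lower over all genes. The leading gene Car1 had 2631 and 2584 CPM in KO and 1069 and 1192 CPM in WT. Without Car1 the sums were 3600 and 3555 CPM in KO and 3063 and 3126 CPM in WT. Emp1, also higher, had 888 and 855 CPM in KO and 71.1 and 202 CPM in WT. With both Car1 and Emp1 left out the direction turned, and both KO sums lay below both WT sums. The 8 goblet cell markers summed to 25142 and 25173 CPM in KO and 26077 and 26113 CPM in WT, with 2 higher and 3 lower. Their leading gene Muc2 had 14202 and 14292 CPM in KO and 8943 and 9309 CPM in WT. Without Muc2 the sums were 10940 and 10882 CPM in KO and 17134 and 16804 CPM in WT. The part of these cell types in the channel values was not tested.

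**Figure D4:**
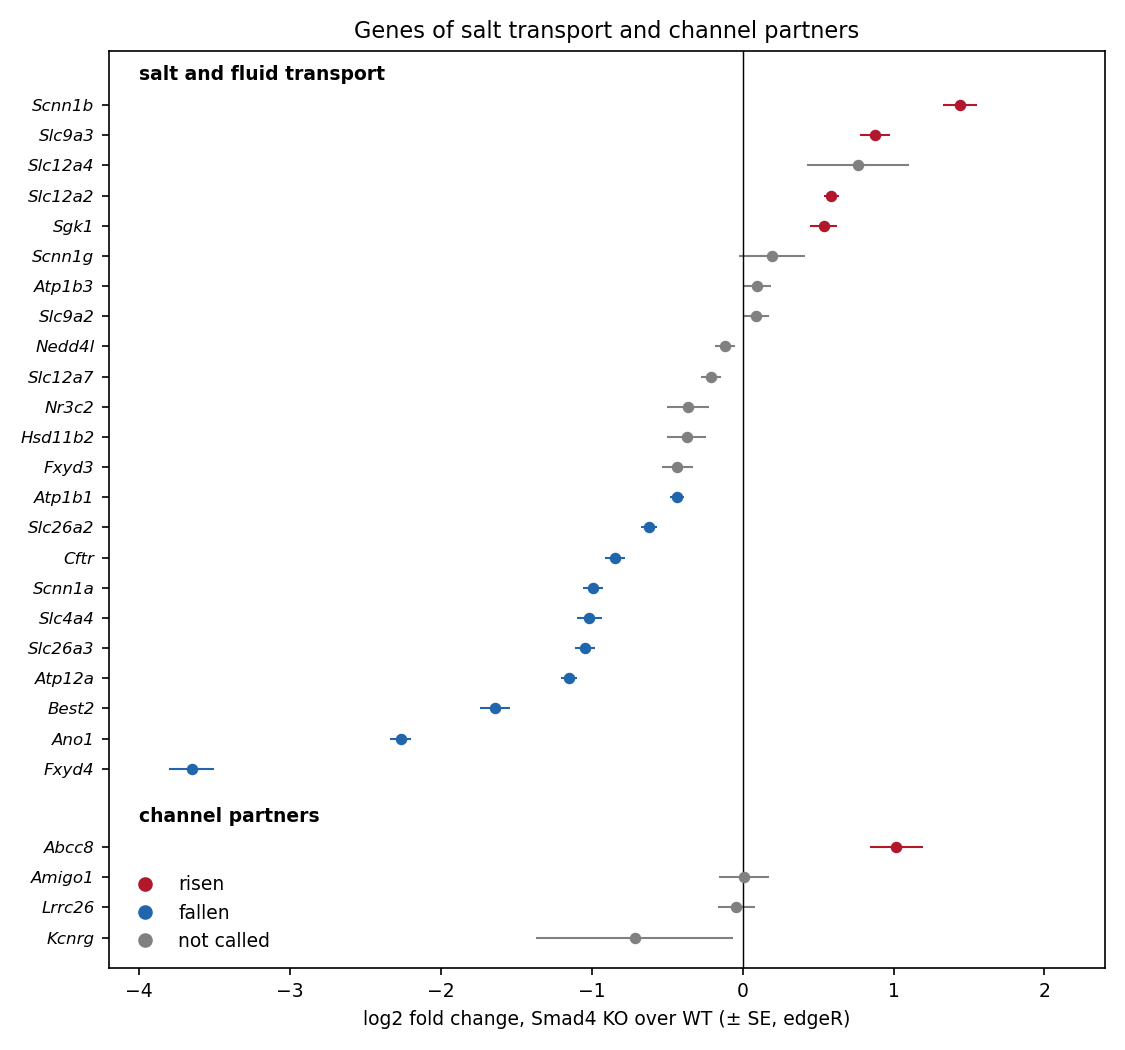
Log2 fold change (Smad4 KO over WT, edgeR) with its SE for genes of colonic salt and fluid transport that are reported here and the 4 tested channel partners; red marks genes risen and blue genes fallen at adjusted p under 0.05. Fxyd4, Ano1 and Best2 lie farthest to the left, and Scnn1b and Abcc8 farthest to the right.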

How the data were processed

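RNA was measured in 4 libraries of colonic epithelial cells. Per the labels' protocols, total RNA was taken with TRIZOL, 1.5 µg of it went into each library with random hexamers, and products were circularized. The authors deposited whole-number counts per Ensembl gene, not normalized. The submitters' processing notes name HISAT2 2.1.0, StringTie 1.3.3b, SAMtools 1.9, FastQC (as version 0.19.7) and the build GRCm38 (mm10). The notes leave unsaid which of these counted reads, or whether the counts are estimates. In every library the value 4 was held by 454 to 521 genes and the value 3 by 128 to 148, so low counts come in steps of about 4 and the precision they give is less than the counts imply.

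GENCODE M21 on GRCm38 named 31207 of the 31227 rows. Counts were filtered with filterByExpr, scaled by TMM and tested across 15838 genes with edgeR 4.0.16 in R 4.3.3 (glmQLFit and glmQLFTest, genotype as the only term, Benjamini-Hochberg threshold 0.05). Of all genes tested, 1398 rose and 1014 fell. The SE is the log2 fold change divided by the square root of F. The fit was also run on simulated counts with 200 genes changed by known folds. Those counts lacked the steps of the deposited counts, and the outcome is not reported here. Promoter windows came from RefSeq (GRCm38.p6).

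Per-library values are given for every called Kcn gene and the 10 with the highest mean CPM. Up to 4 other tested genes a class by level are named with values, and of the partner and transport lists the called genes and up to 4 others by p. Kcnk12 and the other genes without values are named to account for every member. Kcnq1ot1 and Gm45875 were named for their overlap, and Kcnb2 as a partner of Kcnf1, after their values were seen. Some genes that this rule or the lists took are counted in the totals but not reported here. The rule for members uses names alone, though the rule and the lists were set with earlier results of these data known.

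Alternatives were DESeq2 size factors, library totals and upper-quartile factors in place of TMM, no filter on low counts, a minimum of 1 CPM in 2 libraries, limma-voom (limma 3.58.1), DESeq2 1.42.0 and each library left out. Dividing the counts by 4 was added after seeing the data.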

Additional observations from a re-analysis of the deposited data

How the results depend on the processing

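No paired analysis was possible because the genotypes share only replicate number 1. Leaving out 1 library at a time gave 975 to 2573 called genes in all (2412 with all libraries), 2 to 4 Kcn genes higher in KO, 1 to 3 lower, 0 to 1 partner genes and 13 to 18 transport genes. The low counts of all these came without a KO library, apart from the partner gene Abcc8, whose call was also lost without WT replicate 1. The lone sample of a genotype is then assumed to vary like the other group. Kcnh6 ran from a log2 fold change of -0.33 to 0.043 (the value without WT replicate 3) and Slc9a2 from -0.027 (without WT replicate 1) to 0.20, and neither was called in any setting. Slc9a2 is named for this change of sign, after its values were seen. The cause was not tested. Over the other 8 settings, all genes called ranged from 2389 to 3446 (DESeq2), Kcn genes higher in KO from 4 to 6, Kcn genes lower stayed at 3, partner genes at 1, and transport genes ranged from 16 to 19. Fxyd3, with an adjusted p of 0.0504 in edgeR, passed in 7 of these 8 and in 0 of the 4 fits with a library left out (adjusted p 0.0842 to 0.278). Depth and the steps of about 4 counts limit what can be said of Kcn genes below 1 CPM, which were 74 of 91.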
